A study of Mus musculus with 16 samples.

Results

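The response of mouse embryonic stem cells that express the R342C form of CTCF to the withdrawal of leukemia inhibitory factor (LIF) was measured by total RNA sequencing. The members are the 17519 of 55291 listed genes whose normalised counts averaged 10 or more across the 4 R342C libraries. This rule used the mean level of a gene over both media and set no condition on its difference between them. It is not fully independent of that difference. A gene all but absent in 1 medium could enter through its level in the other, while genes low in both media were left out. Counts and medians of the gene lists given later therefore leave out list genes that were low in both media. The cells descend from E14Tg2a, a feeder-free line of strain 129/Ola, in which the endogenous CTCF protein carries an auxin-inducible degron and a doxycycline-inducible transgene supplies CTCF. Indole-3-acetic acid, an auxin, at 500 µM and doxycycline at 1 µg/ml were given to all cultures, WT controls included, for a stated 2 days. The R342C cells without LIF (2 libraries) had spent 3 days in serum medium lacking LIF, CHIR99021 and PD0325901, and the R342C cells with LIF (2 libraries) were in the same medium with LIF, 3 µM CHIR99021 and 1 µM PD0325901. "Without LIF" therefore stands for the removal of all 3 additions, whose effects cannot be told apart. Lines with the K365T or Q418R form of CTCF and with wild-type CTCF (WT), grown in the same 2 media with 2 libraries each, served for comparison. Each form of CTCF is represented by 1 line. The labels number the replicates without saying that they were separate cultures, so that p-values measure the spread between libraries, which may be technical. The spread was pooled over all 16 libraries, so that a standard error given beside R342C values also holds the spread of the other lines.

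LIF signals through its receptor and the kinase JAK1 to the transcription factor STAT3, which sustains naive pluripotency, the state of the early epiblast before implantation. CHIR99021 inhibits GSK3 and so mimics Wnt signalling, and PD0325901 inhibits MEK, the kinase above ERK. When these supports are withdrawn, FGF and ERK signalling carry mouse embryonic stem cells out of the naive state through a formative stage toward the primed state of the epiblast after implantation. CTCF, a DNA-binding protein with zinc fingers, stops cohesin on the chromosome and so sets the anchors of loops.

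The deposited normalised counts were whole multiples of the value of 1 read, and the recovered depth was 22615220 to 30195281 reads per R342C library. Between replicates, the median absolute log2 difference of a gene was 0.219 without LIF and 0.158 with LIF. Mitochondrially encoded genes took 2.65% to 3.13% of the normalised counts of the 4 libraries. Ctcf had 5589 and 6032 normalised counts without LIF, against 6449 and 6194 with LIF, a log2 difference of -0.12 ± 0.15 (SE) with an adjusted p of 0.538. The libraries of the 2 media did not overlap, but the difference did not pass the test, and these reads separate neither transgene from endogenous gene nor mutant from wild-type sequence. With LIF the libraries held the markers of naive embryonic stem cells, such as Nanog at 1087 and 1364 TPM (a value scaled for gene length and depth) and Zfp42 at 738 and 816 TPM.

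Removal of LIF changed the transcriptome broadly. Of the members, 17338 were tested, and 4074 rose while 4171 fell at an adjusted p under 0.05 (limma on log2 of the normalised count plus 4, Benjamini-Hochberg). Among all 17757 genes tested 47.2% were called, 23.3% higher and 23.9% lower, with a median log2 difference of -0.0017. The members called, 8245 or 47.6% of those tested, are a share near that background, and each gene list given later can be read beside the same shares and median. The remaining 9093 tested members had no call, and 181 members fell short of the test's own filter, a mean of 10 over all 16 libraries. Their mean over the R342C libraries was at most 15.1. At the edge of the rule, Wnt9b was just inside with a mean of 10.005 and Gm43034 just outside with 9.997. Among all genes called, 2638 were higher and 2369 lower by at least 1 log2 unit, 502 and 436 by at least 3, and 60 and 63 by at least 5. Adding 4 before the logarithm compresses the differences of genes near 0.

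**Figure D1:**
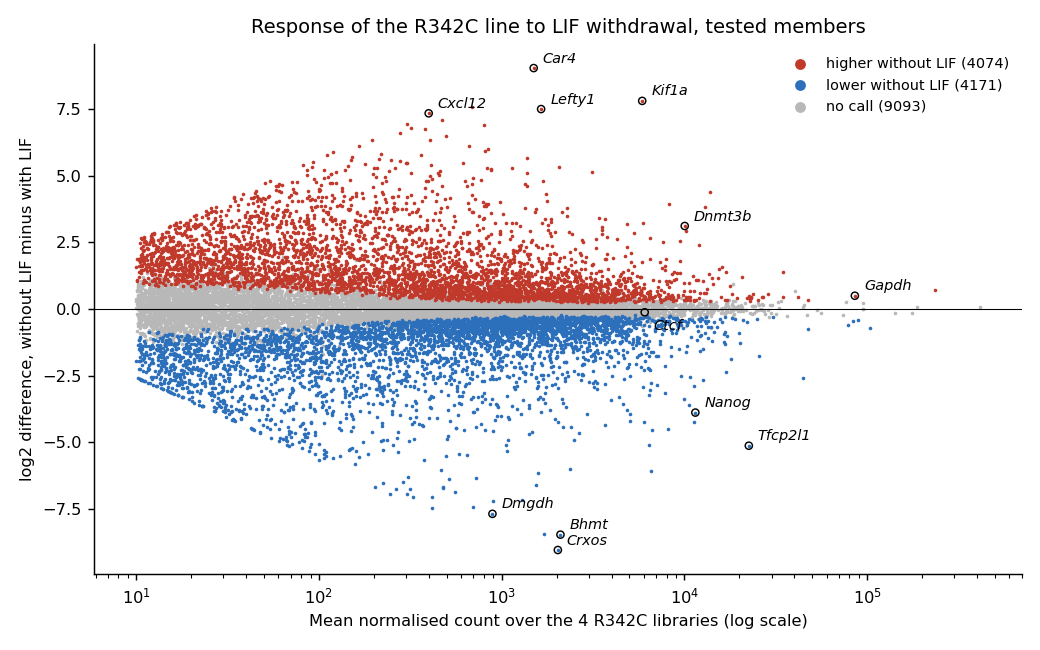
Log2 difference between the R342C libraries without LIF and those with LIF (vertical axis) against the mean normalised count over the 4 libraries (horizontal axis, log scale), with 1 point per tested member. The 4074 genes higher without LIF lie above 0 and the 4171 lower genes below it, and Car4 (9.04) and Crxos (-9.04) mark the ends.

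The largest rise was that of Car4, a membrane-bound carbonic anhydrase (chr11:84957786-84966044, mm10, GENCODE M21). It had 3072 and 2916 normalised counts without LIF, against 0.787 and 2.79 with LIF, a log2 difference of 9.04 ± 0.28 (adjusted p = 8.59e-11). Expression was therefore at the level of single reads in both libraries with LIF and high in both without. Kif1a, a kinesin motor of nerve cells, had 11161 and 12256 normalised counts without LIF, against 40.9 and 56.8 with LIF (7.81 ± 0.27, adjusted p = 1.91e-10). Other large rises were those of Fndc3c1 (7.57), Lefty1 (7.50), the chemokine gene Cxcl12 (7.34), Fam131b (7.08), Cubn (6.79), Ccdc194 (6.77) and Car14, a further carbonic anhydrase gene (6.60). At the other end stood Crxos, a homeobox gene (chr7:15882617-15904020), with 4.30 and 3.18 normalised counts without LIF, against 4148 and 3968 with LIF (-9.04 ± 0.35, adjusted p = 2.37e-10). Ly6a, the gene of the Sca-1 surface antigen, had 5.17 and 6.37 without LIF, against 3169 and 3651 with LIF (-8.45 ± 0.38, adjusted p = 9.89e-10). The other large falls were Bhmt (-8.46), Dmgdh (-7.68), the aldehyde oxidase gene Aox3 (-7.42), Xaf1, an interferon-inducible gene (-7.19), Emp1 (-7.17), Prdm14 (-7.05), the protease inhibitor gene Serpinb1a (-6.94) and Pramel6 (-6.94). The rule that named these genes required that the libraries of the 2 media not overlap, which 37.5% of all tested genes met in the upward and 38.4% in the downward direction.

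By transcript abundance, where TPM allows genes to be compared, other genes led among called members. Mitochondrially encoded genes, structural and some other non-coding RNA genes, and genes with clone names were left out of this choice. Of those left out, mt-Nd1 had 9463 and 12550 TPM without LIF, against 15434 and 18617 TPM with LIF. Mif, a cytokine gene, had 2076 and 2039 TPM without LIF, against 701 and 721 TPM with LIF, and Pkm, pyruvate kinase, had 1294 and 1396 TPM without LIF, against 437 and 541 TPM with LIF. Ftl1, the ferritin light chain, had 2058 and 1812 TPM without LIF, against 718 and 785 TPM with LIF. Ftl2-ps, a near-identical copy annotated as a pseudogene, had 6616 and 5345 TPM without LIF, against 2224 and 2091 TPM with LIF, and reads of the pair may be split uncertainly. In the downward direction Dppa5a, an RNA-binding protein gene of pluripotent cells, had 2070.1 and 2028 TPM without LIF, against 4861 and 4955 TPM with LIF. Tmsb10, which encodes an actin-sequestering thymosin, had 1109 and 1336 TPM without LIF, against 2683 and 3037 TPM with LIF, and Spp1, osteopontin, had 291 and 163 TPM without LIF, against 1469 and 1587 TPM with LIF. All of these lay clear of the other medium in both libraries, with log2 differences of normalised counts from -2.87 for Spp1 to 1.47 for Mif. Rps29, a ribosomal protein gene with log2 difference -0.68 ± 0.18, was also among the largest TPM falls, but its call was lost without replicate 1 with LIF or replicate 2 without LIF (limma adjusted p up to 0.105).

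Naive pluripotency genes fell. All 18 tested genes of the naive list fell and 0 rose, with a median log2 difference of -2.80, and the summed TPM of the list was 2767 and 2703 without LIF, against 10229 and 10923 with LIF. Without replicate 1 with LIF or replicate 1 without LIF, 17 of the 18 were still called. In bulk RNA, fewer cells that express a gene and less RNA per cell cannot be told apart. Nanog, a homeodomain factor, had 1102 and 1887 normalised counts without LIF, against 19140.4 and 23805 with LIF (-3.88 ± 0.21, adjusted p = 4.22e-09). Both libraries without LIF were far below both with LIF, and replicate 1 was the lower of the pair. Tfcp2l1, a factor downstream of STAT3, had 1401 and 1112 normalised counts without LIF, against 41919 and 45672 with LIF (-5.13 ± 0.30, adjusted p = 9.81e-09). Klf4, a Krüppel-like factor, had 673 and 709 without LIF, against 14841 and 16421 with LIF (-4.49 ± 0.71, adjusted p = 0.000119). Prdm14, which represses FGF signalling and DNA methylation genes in naive cells, was at 0.861 and 1.06 without LIF, against 593 and 722 with LIF, so that about 1 read per library was left. Esrrb, an orphan nuclear receptor, retained more, with 3981 and 2416 without LIF, against 17606 and 19123 with LIF (-2.56 ± 0.42, adjusted p = 0.000152). Zfp42, also known as Rex1, had 1701 and 1641 without LIF, against 10906 and 11950.0 with LIF (-2.77 ± 0.28, adjusted p = 1.85e-06). The smallest fall of the naive list was that of Dppa5a (-1.32 ± 0.16), and Tcl1 (-4.59) and Nr5a2 (-4.14) were among the larger ones.

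The Nanog promoter, at chr6:122707239-122707538 on the plus strand (GRCm38.p6, 250 bases before to 50 bases after the start site, RefSeq), is shown because it holds a composite OCT-SOX motif, CATTNTNATGCAAA on either strand, here in capitals on the reverse strand and beginning 75 bases before the start. Of 32851 RefSeq promoter windows of this length, 3 hold these letters, and 2 of the 3 are overlapping windows of Nanog that share this match. In the other Nanog window the match begins 151 bases before the start site.
Nanog: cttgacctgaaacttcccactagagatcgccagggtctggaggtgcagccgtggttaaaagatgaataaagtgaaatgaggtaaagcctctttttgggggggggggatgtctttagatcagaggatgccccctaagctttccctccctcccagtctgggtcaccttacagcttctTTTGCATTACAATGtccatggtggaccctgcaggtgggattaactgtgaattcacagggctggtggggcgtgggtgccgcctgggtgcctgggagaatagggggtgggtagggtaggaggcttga

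**Figure D2:**
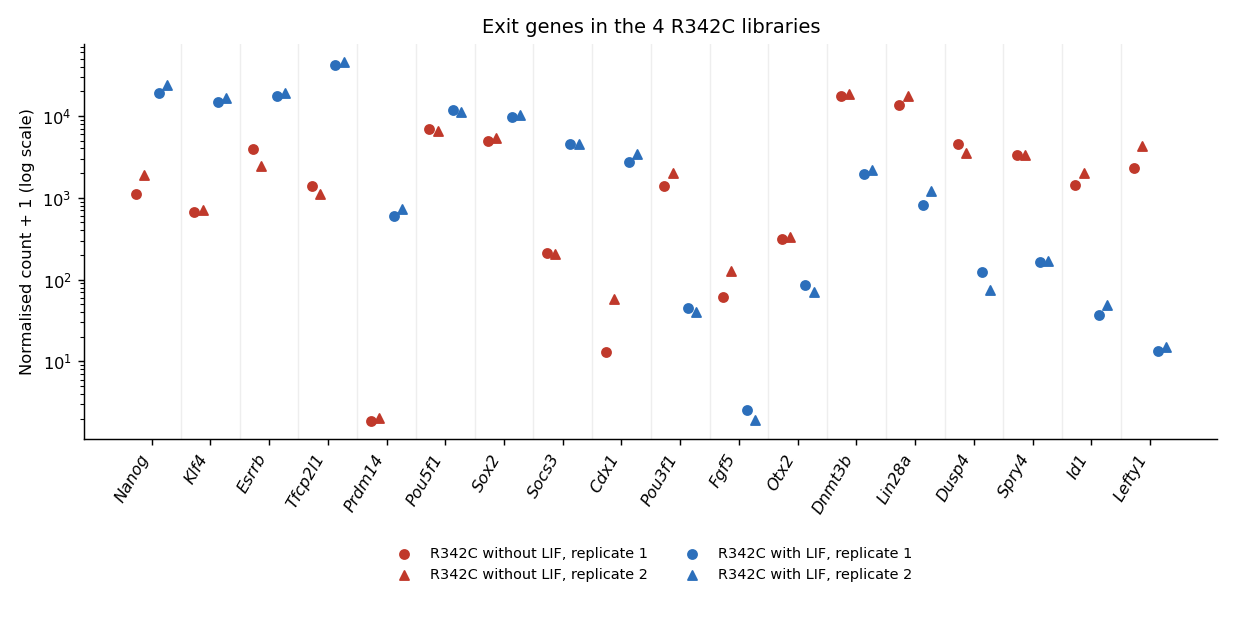
Normalised count plus 1 (log scale) of 18 genes in each of the 4 R342C libraries. For each gene the 2 libraries without LIF (red, left) do not overlap the 2 with LIF (blue, right), and Pou5f1 and Sox2 show the smallest gaps.

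General pluripotency genes moved in both directions. Of 15 tested, 3 rose and 9 fell, with a median of -0.36. Fewer fell with any 1 R342C library left out. Among the falls near the threshold were those of Sall4 (-0.36 ± 0.13, adjusted p = 0.0406) and Rif1 (-0.35 ± 0.13, adjusted p = 0.0363). Pou5f1, which encodes OCT4, had 6967 and 6537 normalised counts without LIF, against 11784 and 11279.9 with LIF (-0.77 ± 0.16, adjusted p = 0.00118). Sox2, its partner, had 4934 and 5405 without LIF, against 9685 and 10261 with LIF (-0.95 ± 0.15, adjusted p = 0.000148). Both thus fell by less than 1 log2 unit, and their libraries did not overlap. Utf1, a chromatin-bound factor, rose, with 6139 and 6301 normalised counts without LIF, against 450.0 and 747 with LIF (3.41 ± 0.24, adjusted p = 5.19e-08). Tdgf1, the Nodal co-receptor, fell by 2.51 on the log2 scale, and Fbxo15 fell likewise (-2.68 ± 0.35).

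Formative and primed genes rose. Of 16 tested, 14 rose and 0 fell, with a median of 2.89, and 14 also rose with any 1 R342C library left out. The list summed to 1172 and 1346 TPM without LIF, against 170.2 and 189.8 TPM with LIF. Pou3f1, also known as Oct6, had 1383 and 2015 normalised counts without LIF, against 44.1 and 39.1 with LIF (5.20 ± 0.41, adjusted p = 1.54e-07). Both libraries without LIF lay far above both with LIF. Fgf5, the ligand that marks the early postimplantation epiblast, was lower throughout, with 61.1 and 127 without LIF, against 1.57 and 0.931 with LIF (4.14 ± 0.59, adjusted p = 4.58e-05). Otx2, a homeodomain factor of the formative state, had 308 and 328 without LIF, against 84.97 and 68.9 with LIF (2.00 ± 0.31, adjusted p = 9.62e-05). Sox3 (152 and 218 without LIF, against 7.08 and 6.51 with LIF) rose by 4.10 on the log2 scale. The libraries of the 2 media were apart in each of these genes.

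Genes of the LIF pathway and its targets fell more often than they rose. Of 17 tested, 2 rose and 8 fell, with a median of -0.43. Among receptors and transducers, Lifr, the LIF receptor, had 1654 and 1635 normalised counts without LIF, against 4960.4 and 5249 with LIF (-1.63 ± 0.21, adjusted p = 2.1e-05). Stat3 had 1443 and 1065 without LIF, against 4301 and 4395 with LIF (-1.81 ± 0.23, adjusted p = 1.77e-05), while Jak2, a kinase relative of JAK1, rose (0.74 ± 0.18, adjusted p = 0.00355). Receptor and factor transcripts were thus lower in both libraries without LIF. Among targets, Socs3, which encodes the feedback inhibitor of the pathway, had 212 and 206 without LIF, against 4577 and 4561 with LIF (-4.43 ± 0.32, adjusted p = 7.89e-08). Pramel7 was close to 0, with 2.58 and 1.06 without LIF, against 279 and 239 with LIF (-5.51 ± 0.40, adjusted p = 7e-08). Bcl3, a partner of NF-kappaB, fell (-3.38 ± 0.22), and Cebpd, which STAT3 also activates in other cells, rose, with 175 and 277 without LIF, against 36.2 and 40.02 with LIF (2.41 ± 0.34, adjusted p = 4.14e-05).

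The Socs3 promoter, at chr11:117969317-117969616 on the minus strand (GRCm38.p6, RefSeq), is shown for its match to the STAT motif TTCNNNGAA, in capitals, which begins 154 bases before the start site. This short palindrome is common, and 8.30% of the promoter windows hold it.
Socs3: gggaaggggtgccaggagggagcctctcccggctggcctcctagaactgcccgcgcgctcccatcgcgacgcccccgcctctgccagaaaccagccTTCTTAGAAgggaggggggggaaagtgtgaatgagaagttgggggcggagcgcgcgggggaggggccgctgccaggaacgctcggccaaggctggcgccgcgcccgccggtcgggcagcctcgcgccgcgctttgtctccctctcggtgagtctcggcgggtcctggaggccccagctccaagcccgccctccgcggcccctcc

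Targets of MEK and ERK rose more often than they fell. Of 21 tested, 13 rose and 1 fell, with a median of 1.09. Fewer rose with any 1 R342C library left out, and the rise of Etv4 lay near the threshold (0.77 ± 0.26, adjusted p = 0.0253). Dusp4, a phosphatase of ERK, had 4566 and 3482 normalised counts without LIF, against 124 and 74.5 with LIF (5.32 ± 0.36, adjusted p = 4.18e-08). Spry4, a Sprouty inhibitor of receptor signalling, had 3310.0 and 3338 without LIF, against 162 and 166 with LIF (4.31 ± 0.45, adjusted p = 2.32e-06). Dusp6, a further ERK phosphatase, had 2971 and 3798 without LIF, against 397 and 305 with LIF (3.25 ± 0.22, adjusted p = 3.57e-08). These feedback inhibitors were well apart between the media. Fosb, an immediate early gene, had 955 and 1686 without LIF, against 23.6 and 84.7 with LIF (4.69 ± 0.86, adjusted p = 0.000411), with the widest spread of replicates among them. Egr1 (-0.19 ± 1.08, adjusted p = 0.906), Egr2 (0.15 ± 0.94, adjusted p = 0.914) and Fos (1.09 ± 0.84, adjusted p = 0.309) had no call. Egr3 (2.38 ± 0.45) and Fosl1 (2.46 ± 0.41) rose. The gene that fell was Spry2, another Sprouty, with 1179 and 1841 without LIF, against 6051 and 5807 with LIF (-2.01 ± 0.24, adjusted p = 1.04e-05). When replicate 2 without LIF was left out, 2 members fell.

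Of 14 FGF ligands and receptors, 6 rose and 3 fell, with a median of 0.84. Among ligands, Fgf4, the autocrine FGF of naive cells, had 1449 and 1021 normalised counts without LIF, against 4522 and 4507 with LIF (-1.89 ± 0.30, adjusted p = 0.000136). Fgf10 fell further, with 13.8 and 24.4 without LIF, against 332 and 303 with LIF (-3.84 ± 0.35, adjusted p = 6.55e-07). Ligands thus moved in both directions, Fgf5 and Fgf13 (3.33 ± 0.45) having risen. Among receptors, Fgfr2 had 1223 and 1319 without LIF, against 92.05 and 106 with LIF (3.63 ± 0.25, adjusted p = 5.11e-08), and Fgfr3 rose as well (2.74 ± 0.34). No receptor of the list fell.

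Wnt targets moved in both directions and included deep falls. Of 15 tested, 4 rose and 6 fell, with a median of -0.11. Cdx1, a caudal homeobox gene, had 12.1 and 56.2 normalised counts without LIF, against 2717 and 3399.8 with LIF (-6.61 ± 0.57, adjusted p = 3.39e-07). Sp5, a direct target that feeds back on Wnt transcription, had 2.58 and 27.6 without LIF, against 525 and 459 with LIF (-5.10 ± 0.72, adjusted p = 4.1e-05). Dkk1, a secreted Wnt antagonist, had 8.61 and 22.3 without LIF, against 362 and 210.3 with LIF (-3.94 ± 0.50, adjusted p = 1.45e-05). In all 3 genes replicate 2 without LIF kept more reads than replicate 1, yet both stayed far below the libraries with LIF. Axin2, the negative feedback scaffold, fell less (-1.34 ± 0.27, adjusted p = 0.000952). Nkd2, an inhibitor of Dishevelled, rose, with 35.3 and 39.3 without LIF, against 0 and 0.931 with LIF (3.21 ± 0.35, adjusted p = 3.13e-06), and Lef1, a transcription factor of the pathway, rose too (2.47 ± 0.53).

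The Sp5 promoter, at chr2:70474673-70474972 on the plus strand (GRCm38.p6, RefSeq), holds 1 match to the TCF-LEF motif CTTTGATC, in capitals, starting 104 bases before the start site. Of all promoter windows, 0.938% hold these letters.
Sp5: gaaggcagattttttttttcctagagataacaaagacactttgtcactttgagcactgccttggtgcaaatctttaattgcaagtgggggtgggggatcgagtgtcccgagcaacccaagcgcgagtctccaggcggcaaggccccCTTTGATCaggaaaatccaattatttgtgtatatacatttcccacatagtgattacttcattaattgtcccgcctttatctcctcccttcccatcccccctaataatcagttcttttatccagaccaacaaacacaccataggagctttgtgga

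Nodal and BMP are ligands of the TGF-beta family. Of 17 Nodal pathway genes 7 rose and 6 fell, with a median of 0.08. Lefty1, a secreted Nodal inhibitor and target, had 2279 and 4273 normalised counts without LIF, against 12.6 and 13.96 with LIF (7.50 ± 0.54, adjusted p = 6.46e-08). Lefty2, its neighbour on chromosome 1, had 865 and 2254 without LIF, against 84.97 and 99.6 with LIF (3.87 ± 0.49, adjusted p = 1.62e-05). Both were higher in replicate 2 than in replicate 1 without LIF, and both were clear of the libraries with LIF. Pcsk6, a convertase that processes Nodal precursors, fell (-3.14 ± 0.26), as did the inhibitory Smad7 (-2.53 ± 0.24). Gdf1 and Cer1 had 0 normalised counts in all 4 libraries. Of 19 BMP pathway genes 8 rose and 6 fell, with a median of 0.06, but 2 fell without replicate 2 with LIF and 3 without replicate 1 without LIF. The Id genes encode inhibitors of helix-loop-helix factors. Id1 had 1429.9 and 2006 without LIF, against 35.4 and 47.5 with LIF (5.24 ± 0.39, adjusted p = 8.77e-08). Id2 (3.63 ± 0.29) and Id3 (2.32 ± 0.49) also rose, and Id4 had no call (-0.36 ± 0.26, adjusted p = 0.282). The ligand gene Bmp2 fell (-2.54 ± 0.42), and the BMP antagonist gene Grem1 rose, with 27.5 and 25.5 without LIF, against 0.787 and 0.931 with LIF (2.65 ± 0.36).

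Of 14 Notch pathway genes 9 rose and 2 fell, with a median of 0.94. Leaving out replicate 1 with LIF left 5 that rose, and leaving out any 1 of the 4 R342C libraries left 1 that fell. The ligand gene Dll1 had 2145 and 940.2 normalised counts without LIF, against 116 and 71.7 with LIF (3.90 ± 0.57, adjusted p = 5.96e-05), and Jag2 rose (1.47 ± 0.22). Dll4, with 79.2 and 25.5 without LIF, against 9.44 and 13.03 with LIF, rose (1.71 ± 0.49) but lost its call without replicate 1 of either medium (limma adjusted p up to 0.161). Of 14 Hippo genes 6 rose and 2 fell, with a median of 0.33. Tead4, a DNA-binding partner of YAP, had 185 and 215 without LIF, against 1956 and 1947 with LIF (-3.26 ± 0.29, adjusted p = 5.48e-07), whereas Tead2 rose (1.00 ± 0.16). The YAP targets Ccn1 (2.22 ± 0.31) and Ccn2 (1.13 ± 0.24) rose. Of 13 retinoic acid genes 5 rose and 3 fell, with a median of 0.15. Aldh1a2, which makes retinoic acid, fell to 8.61 and 20.2 normalised counts without LIF, against 222 and 166 with LIF (-3.49 ± 0.35, adjusted p = 1.5e-06). The binding protein gene Crabp2 rose (2.96 ± 0.23), and Stra8, a retinoic acid target of germ cells, fell (-2.08 ± 0.37).

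**Figure D3:**
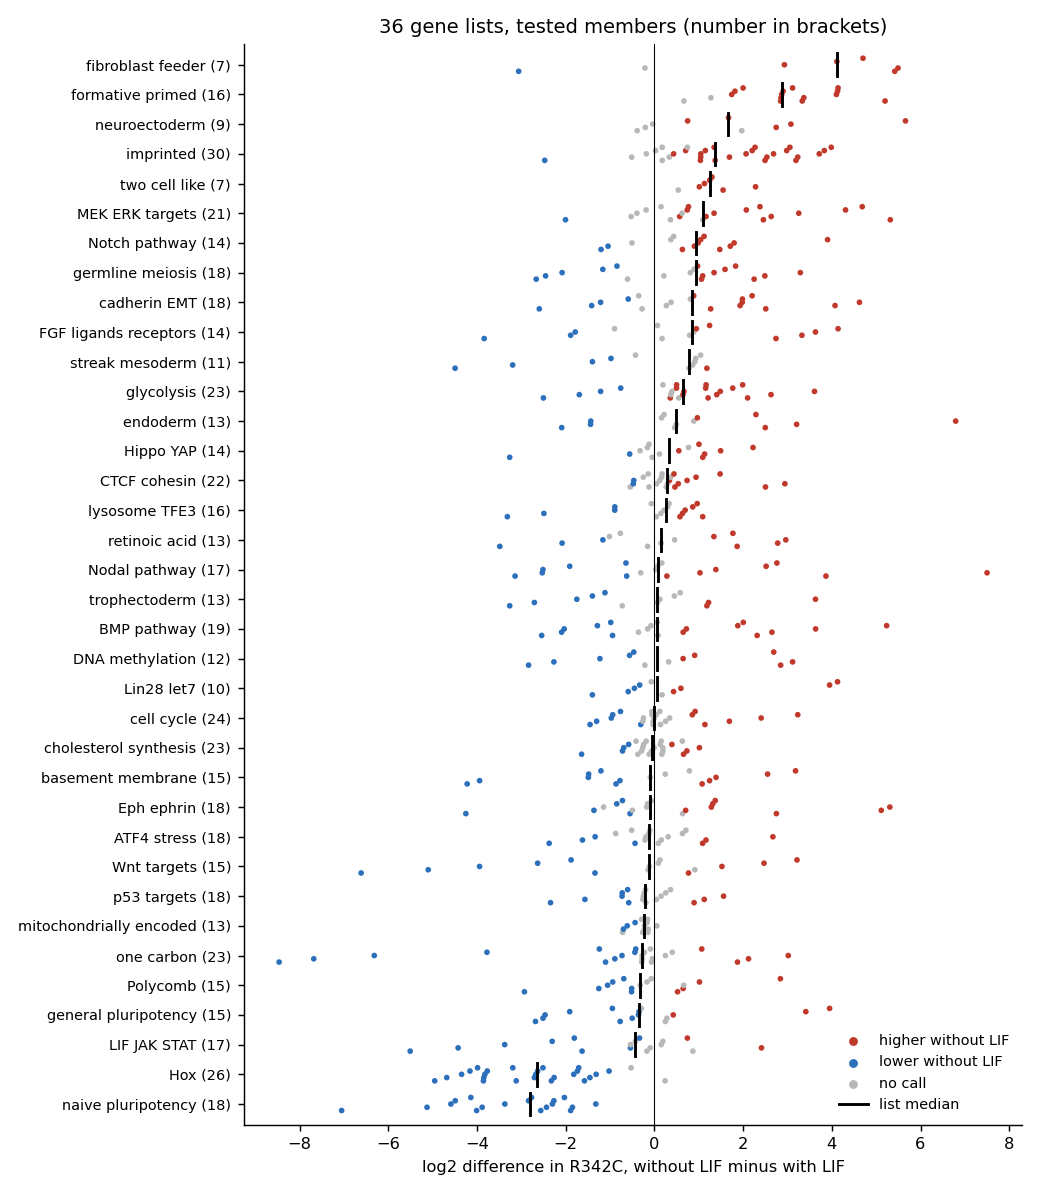
Log2 difference in R342C, without LIF minus with LIF, for each tested member of 36 gene lists, with the list median as a black bar and calls in colour. The naive list (median -2.80) and the Hox list (-2.65) lie lowest, and the formative and primed list (2.89) and the fibroblast list (4.11, 7 genes) highest.

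Regulators of DNA methylation moved in both directions. Of 12 tested, 5 rose and 5 fell, and 3 fell without replicate 2 with LIF. The de novo methyltransferase gene Dnmt3b had 473 and 468 TPM without LIF, against 48.7 and 55.5 TPM with LIF, and its normalised counts differed by 3.12 ± 0.27 on the log2 scale (adjusted p = 4.41e-07). Dnmt3a (2.85 ± 0.15) and the cofactor gene Dnmt3l (2.69 ± 0.33) rose as well, and the maintenance methyltransferase gene Dnmt1 had no call (-0.22 ± 0.11, adjusted p = 0.129). Tet2, which oxidises methylcytosine, had 14.1 and 13.3 TPM without LIF, against 87.1 and 102 TPM with LIF (-2.84 ± 0.18 for normalised counts, adjusted p = 1.73e-08). Tet3 rose (0.91 ± 0.13), and Uhrf1, which guides maintenance methylation, fell (-1.23 ± 0.10). Within each of these genes the 2 media were apart. Of 15 Polycomb genes 4 rose and 7 fell, with a median of -0.32. Phf19, an accessory subunit of Polycomb repressive complex 2, had 362 and 386 normalised counts without LIF, against 46.4 and 51.2 with LIF (2.84 ± 0.23, adjusted p = 2.18e-07). Its relative Mtf2 fell (-1.06 ± 0.14), as did the core subunit gene Eed (-1.25 ± 0.16) and the chromobox gene Cbx8 (-2.93 ± 0.29). Of 10 genes of the Lin28 and let-7 axis 4 rose and 4 fell. Lin28a, which blocks let-7 maturation, had 13591 and 17512 without LIF, against 819.8 and 1207 with LIF (3.95 ± 0.30, adjusted p = 1.17e-07), and its paralog Lin28b had 1238 and 1479 without LIF, against 75.5 and 71.7 with LIF (4.13 ± 0.25, adjusted p = 1.54e-08). Hmga2, a let-7 target, fell (-1.40 ± 0.18).

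Among one-carbon genes those of betaine metabolism fell furthest. Of 23 tested genes 4 rose and 10 fell, with a median of -0.28, and Sardh was below the rule. Bhmt, which passes a methyl group from betaine to homocysteine, had 9.47 and 6.37 normalised counts without LIF, against 3738 and 4639 with LIF (-8.46 ± 0.27, adjusted p = 8.59e-11). Dmgdh, which degrades the dimethylglycine that this reaction leaves, had 2.58 and 7.43 without LIF, against 1764 and 1789 with LIF (-7.68 ± 0.31, adjusted p = 3.21e-10). Bhmt2, a related methyltransferase, had 4.30 and 3.18 without LIF, against 560.2 and 668 with LIF (-6.32 ± 0.24, adjusted p = 2.37e-10). All 3 were near 0 in both libraries without LIF. Tdh, threonine dehydrogenase, which supplies glycine in mouse embryonic stem cells, had 542 and 792 without LIF, against 8762 and 9301 with LIF (-3.78 ± 0.29, adjusted p = 1.06e-07). Phgdh, the first step of serine synthesis, rose (1.07 ± 0.15), as did Gldc of the glycine cleavage system (1.87 ± 0.17). Chdh, which makes betaine from choline, rose as well, with 51.7 and 56.2 without LIF, against 4.72 and 1.86 with LIF (3.02 ± 0.37).

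The 3 betaine genes are neighbours on chromosome 13. The start of Bhmt2, on the other strand, lies 134 bases from that of Dmgdh, and the start of Bhmt 36678 bases from it, by RefSeq (GRCm38.p6). The window of Dmgdh, chr13:93674186-93674485 on the plus strand, is shown because it holds the start sites of both Dmgdh and Bhmt2, with the bases between the start sites in capitals.
Dmgdh: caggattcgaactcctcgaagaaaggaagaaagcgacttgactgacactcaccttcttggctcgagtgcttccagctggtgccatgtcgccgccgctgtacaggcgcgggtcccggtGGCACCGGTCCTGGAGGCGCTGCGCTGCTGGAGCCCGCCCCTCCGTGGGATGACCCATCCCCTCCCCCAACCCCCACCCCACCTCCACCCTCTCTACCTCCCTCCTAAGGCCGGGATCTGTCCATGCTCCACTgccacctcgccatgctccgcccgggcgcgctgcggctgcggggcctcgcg

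Glycolysis genes rose more often than they fell. Of 23 tested, 15 rose and 4 fell, with a median of 0.64, and the list summed to 10935 and 11279.9 TPM without LIF, against 7392 and 8038 TPM with LIF. At glucose uptake, Slc2a1, the transporter GLUT1, had 270.0 and 304 TPM without LIF, against 67.7 and 70.5 TPM with LIF (log2 difference of normalised counts 1.99 ± 0.13), while Slc2a3, GLUT3, had 642 and 661 TPM without LIF, against 1021 and 1095 TPM with LIF (-0.76 ± 0.18). GLUT3 stayed the more abundant transcript in all 4 libraries. At the hexokinase step both isoforms fell, Hk1 with 18.6 and 18.99 TPM without LIF, against 97.2 and 108 TPM with LIF (-2.50 ± 0.23), and Hk2 by 1.21 on the log2 scale. At phosphofructokinase Pfkp fell, with 31.6 and 23.5 TPM without LIF, against 88.7 and 80.5 TPM with LIF (-1.69 ± 0.22), and Pfkl rose, with 79.4 and 77.3 TPM without LIF, against 21.3 and 22.8 TPM with LIF (1.77 ± 0.12). Pfkl was thus the more abundant of the pair in both libraries without LIF, and Pfkp in both with LIF. The lower steps rose, with Pgk1 (1.17 ± 0.11), Eno1 (1.21 ± 0.22), Eno3 (2.10 ± 0.25) and Pkm (1.41 ± 0.14). Gapdh, with 3163 and 3313 TPM without LIF, against 2062 and 2339 TPM with LIF, lost its call without replicate 1 with LIF or replicate 2 without LIF (limma adjusted p up to 0.078). Aldoa, Pgam1 and Ldha rose as well, but each lost its call without replicate 2 without LIF, Aldoa and Pgam1 also without replicate 1 with LIF. The largest rises of the list were those of Slc16a3 and Pdk1. Slc16a3, the lactate exporter MCT4, had 38.5 and 42.5 TPM without LIF, against 2.92 and 3.26 TPM with LIF (3.61 ± 0.33), and Pdk1, which restrains pyruvate entry to mitochondria, had 118 and 136 TPM without LIF, against 18.7 and 20.4 TPM with LIF (2.63 ± 0.21). The highest adjusted p among the genes given here with their values, Gapdh apart, was 0.00301 for Slc2a3.

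**Figure D4:**
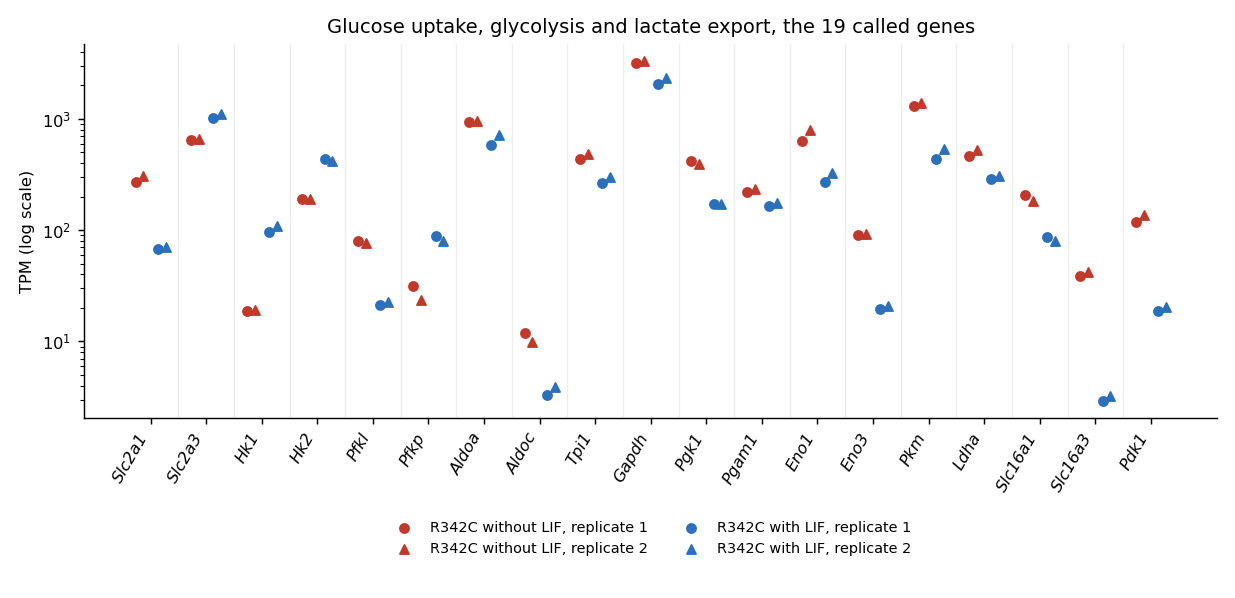
TPM (log scale) of the 19 called genes of glucose uptake, glycolysis and lactate export in each R342C library, in pathway order. The 2 libraries without LIF (red, left) and the 2 with LIF (blue, right) do not overlap in any of them, and Slc2a3, Hk1, Hk2 and Pfkp are the 4 that lie lower without LIF.

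Other metabolic lists moved less. Of 23 cholesterol synthesis genes 4 rose and 4 fell, with a median of -0.07. Leaving out either library with LIF left 1 that fell, and leaving out either library without LIF left 2. Ebp, a sterol isomerase, fell (-1.64 ± 0.18). Of 16 lysosomal genes, targets of TFE3 and its kin among them, 6 rose and 4 fell, with a median of 0.26. Without replicate 2 with LIF or replicate 1 without LIF, 3 rose. The transcription factor gene Tfeb fell, with 338 and 352 normalised counts without LIF, against 1923 and 2001 with LIF (-2.49 ± 0.21, adjusted p = 2.33e-07), as did Gpnmb (-3.32 ± 0.42). Of the 13 mitochondrially encoded genes 3 fell and 0 rose, with a median of -0.23. They were mt-Nd1 (-0.70 ± 0.19), mt-Nd2 (-0.61 ± 0.16) and mt-Cytb (-0.44 ± 0.15), subunits of the respiratory chain, and all 3 calls were lost without replicate 2 with LIF or replicate 1 without LIF, that of mt-Cytb also without replicate 1 with LIF (limma adjusted p up to 0.104, 0.0845 and 0.223 in the same order).

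Stress and growth control gave mixed counts. Of 18 p53 targets 3 rose and 6 fell, with a median of -0.21. In this list 1 rose without replicate 1 with LIF and 3 fell without replicate 1 without LIF. Cdkn1a, the cell cycle inhibitor p21, had 1973 and 1914 normalised counts without LIF, against 5507 and 6042 with LIF (-1.57 ± 0.15, adjusted p = 1.27e-06). Gdf15 fell (-2.34 ± 0.49) and Pmaip1, which encodes the death-promoting NOXA, rose (1.56 ± 0.31). Of 18 genes of the ATF4 stress response 3 rose and 4 fell, with a median of -0.11, and 1 rose without replicate 2 with LIF or replicate 1 without LIF. Asns, asparagine synthetase, had 5668 and 5222 without LIF, against 27912 and 28512 with LIF (-2.37 ± 0.18, adjusted p = 1.15e-07), whereas the cystine transporter gene Slc7a11 rose (2.67 ± 0.41). Of 24 cell cycle genes 6 rose and 6 fell, with a median of -0.02, a sign that turned with TPM (0.04) and with upper-quartile scaling (0.03). The D-type cyclin genes did not move together. Ccnd1 had 1714 and 2333 without LIF, against 564 and 675 with LIF (1.69 ± 0.31, adjusted p = 0.000369), and Ccnd2 rose (2.41 ± 0.47), but Ccnd3 fell (-0.94 ± 0.11). Cdkn1c, an imprinted inhibitor of cyclin-dependent kinases, rose, with 1516 and 2299.6 without LIF, against 205 and 186 with LIF (3.23 ± 0.23, adjusted p = 5.95e-08).

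Surface and matrix genes moved in both directions. Of 18 genes of cell adhesion and epithelial-mesenchymal transition 9 rose and 4 fell, with a median of 0.85. On the epithelial side Esrp1, an epithelial splicing regulator, had 2604 and 2719.9 normalised counts without LIF, against 102 and 106 with LIF (4.62 ± 0.19, adjusted p = 3.46e-10), and Epcam had 4864 and 4665 without LIF, against 821 and 844 with LIF (2.51 ± 0.15, adjusted p = 1.24e-08). On the mesenchymal side Fn1, fibronectin, fell, with 12664 and 12614 without LIF, against 71699 and 81514 with LIF (-2.60 ± 0.29, adjusted p = 4.1e-06), and Vim fell (-1.42 ± 0.23), but Zeb2, a repressor of epithelial genes, rose (4.07 ± 0.45). The cadherin gene Cdh1 had no call (-0.28 ± 0.12). Of 18 Eph receptors and ephrins 7 rose and 5 fell, with a median of -0.11, and 2 fell without replicate 2 with LIF and 3 without replicate 1 of either medium. Epha4 had 508 and 694 without LIF, against 11137 and 11635 with LIF (-4.25 ± 0.19, adjusted p = 9.89e-10), while Epha1 had 1847 and 2588 without LIF, against 44.1 and 59.6 with LIF (5.31 ± 0.49, adjusted p = 7.32e-07), and Epha8 rose by 5.12 on the log2 scale. Of 15 basement membrane genes 5 rose and 7 fell, with a median of -0.09. Among laminin chains, Lama1 had 501 and 745 without LIF, against 9756 and 9154 with LIF (-3.94 ± 0.23, adjusted p = 1.05e-08), and Lamb1 had 9666 and 7716 without LIF, against 762 and 1177 with LIF (3.18 ± 0.27, adjusted p = 2.63e-07). The alpha and beta chain genes of laminin 111 thus moved in opposite directions, the gamma chain gene Lamc1 falling (-1.49 ± 0.10). Nid1, the linker nidogen, fell (-4.22 ± 0.21) and Col18a1 rose (2.55 ± 0.24).

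Markers of germ layers and other cells differed in level between lists. Without LIF, summed TPM was 23.6 and 30.0 for streak and mesoderm genes and 48.3 and 57.2 for endoderm genes. It was 124 and 148 for neuroectoderm genes and 108 and 114 for trophectoderm genes. With LIF the sums were 38.3 and 39.9, 28.4 and 37.4, 74.6 and 94.9, and 229 and 251 in the same order. The streak and mesoderm list had a median log2 difference of 0.78. Of 11 streak and mesoderm genes 1 rose and 4 fell, with 0 rising without replicate 1 with LIF or replicate 2 without LIF and 2 falling without replicate 1 without LIF. T, or Brachyury, had 18.1 and 98.7 normalised counts without LIF, against 17.3 and 26.1 with LIF (0.91 ± 0.76, adjusted p = 0.351), and its sign turned without replicate 2 without LIF (-0.20). Gsc, goosecoid, fell to 6.89 and 1.06 without LIF, against 183 and 146 with LIF (-4.49 ± 0.38, adjusted p = 3.35e-07), and Kdr fell (-3.20 ± 0.38). Of 13 endoderm genes 5 rose and 3 fell, with a median of 0.50. Gata6 (71.5 and 88.1 without LIF, against 83.4 and 59.6 with LIF) and Sox17 (26.7 and 23.3 without LIF, against 14.9 and 19.5 with LIF) had no call, and the difference of Gata6 of 0.16 ± 0.35 turned sign without replicate 2 with LIF (-0.068). Sox7, a factor of extraembryonic endoderm, rose, with 29.3 and 53.1 without LIF, against 1.57 and 0 with LIF (3.21 ± 0.42, adjusted p = 2.14e-05). Afp, Ttr and Apoa1 were at 4.72 normalised counts or less in each of the 4 libraries. Of 9 neuroectoderm genes 5 rose and 0 fell, with a median of 1.67. Sox11 had 2669.5 and 2749 without LIF, against 45.6 and 53.98 with LIF (5.66 ± 0.21, adjusted p = 2.28e-10), Pax6 had 69.7 and 48.8 without LIF, against 7.08 and 0.931 with LIF (3.08 ± 0.43), and Nes had no call (-0.04 ± 0.17), with a sign that turned with TPM (0.0215), with upper-quartile scaling (0.0065) and without replicate 1 without LIF (0.036). Of 13 trophectoderm genes 3 rose and 5 fell, with a median of 0.07, and Cdx2 had no call, with 9.47 and 22.3 without LIF, against 12.6 and 13.96 with LIF (0.12 ± 0.73; -0.36 without replicate 2 without LIF).

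Genes of fibroblasts and feeder cells had the highest median. Of 7 tested, 5 rose and 1 fell, with a median of 4.11, and the summed TPM of the list was 81.7 and 164 without LIF, against 27.2 and 34.5 with LIF. Of the 11 genes listed, Postn, Lum, S100a4 and Col3a1 were not members. The cytoskeletal genes Acta2 (396 and 789.5 normalised counts without LIF, against 4.72 and 13.96 with LIF) and Tagln (323 and 1300.0 without LIF, against 6.29 and 18.6 with LIF) rose, both more in replicate 2, by 5.49 ± 0.58 and 5.42 ± 0.60. Col1a2 had 106 and 134 without LIF, against 1.57 and 0 with LIF (4.70 ± 0.54), and Dcn had 94.7 and 54.1 without LIF, against 0.787 and 0 with LIF (4.11 ± 0.69). Thy1 rose (2.93 ± 0.37). Of the genes below the rule, Col3a1 had 6.89 and 15.9 without LIF, against 0.787 and 0.931 with LIF, Postn and Lum had at most 1.57 normalised counts in any of the 4 libraries, and S100a4 had 0 in all of them. Col1a1, with 81.8 and 139 without LIF, against 109 and 141 with LIF, had no call (-0.21 ± 0.35, or 0.16 without replicate 1 without LIF). Pdgfrb fell, with 129.99 and 108 without LIF, against 946 and 1098 with LIF (-3.06 ± 0.23). The part of such cells in the other results was not tested.

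Early embryonic and germline genes were also measured. Of 7 genes marking the 2-cell-like state, 6 rose and 0 fell, with a median of 1.25. Without replicate 1 or replicate 2 with LIF 2 rose, and without replicate 1 without LIF 1 rose. Zscan4e had 49.1 and 55.2 normalised counts without LIF, against 8.65 and 6.51 with LIF (2.28 ± 0.33, adjusted p = 5.81e-05), and reads of the Zscan4 paralogs may be split uncertainly. Of 18 germline and meiosis genes 9 rose and 5 fell, with a median of 0.93, and 3 fell without replicate 2 without LIF. Rhox5, an X-linked homeobox gene, had 1012 and 1007 without LIF, against 101 and 97.7 with LIF (3.29 ± 0.34, adjusted p = 1.97e-06), and Mael rose (2.49 ± 0.33). Dazl, an RNA-binding protein of germ cells, fell, with 171 and 107 without LIF, against 1039 and 747 with LIF (-2.66 ± 0.28, adjusted p = 2.17e-06).

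Hox genes, which pattern the body axis and lie in 4 clusters, fell. Of 26 tested, 24 fell and 0 rose, with a median of -2.65, and 13 further Hox genes were below the rule. The list summed to 43.2 and 47.7 TPM without LIF, against 167 and 187 TPM with LIF. Hoxc12 had 1.72 and 1.06 normalised counts without LIF, against 180.2 and 147 with LIF (-4.95 ± 0.31, adjusted p = 2.07e-08). Hoxc11 was at 0 in both libraries without LIF, against 66.1 and 68.9 with LIF, and Hoxb13 had 1.72 and 3.18 without LIF, against 124 and 208 with LIF. Hoxc11 thus had no read without LIF at this depth. Outside the rule, Hoxb1 ran the other way with 11.2 and 8.49 without LIF, against 0 in both libraries with LIF.

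Imprinted genes, expressed from a single parental allele, rose more often than they fell. Of 30 tested, 22 rose and 1 fell, with a median of 1.36, and 20 or 21 rose with any 1 R342C library left out. Summed TPM was 1981 and 2219 without LIF, against 860.4 and 822 with LIF. Peg10, a paternally expressed gene of retrotransposon origin, had 19143 and 29136 normalised counts without LIF, against 1298 and 2112 with LIF (3.83 ± 0.38, adjusted p = 1.4e-06). Its neighbour Sgce rose as well (2.20 ± 0.24). Nnat had 451 and 678 without LIF, against 25.96 and 37.2 with LIF (3.99 ± 0.45, adjusted p = 5.01e-06). Igf2, a fetal growth factor, was uneven between replicates, with 61.1 and 187 without LIF, against 0 and 13.96 with LIF (3.72 ± 0.75, adjusted p = 0.00088). In the Dlk1-Dio3 domain the non-coding genes Meg3 (1.05 ± 0.17) and Rian (1.04 ± 0.20) and the coding Dlk1 (2.69 ± 0.27) rose. The 1 gene that fell was Plagl1, a zinc finger gene, with 535 and 457 without LIF, against 3204 and 2387 with LIF (-2.47 ± 0.19, adjusted p = 1e-07).

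Around CTCF itself, 9 of 22 genes of CTCF, cohesin and their partners rose and 2 fell, with a median of 0.28. Fewer of these genes rose with any 1 R342C library left out. The paralogous cohesin subunit genes Stag2 and Stag1 moved in opposite directions. Stag2 had 6869 and 7531 normalised counts without LIF, against 2586 and 2562 with LIF (1.48 ± 0.12, adjusted p = 1.68e-07), while Stag1 had 3908 and 4178 without LIF, against 5528 and 5721 with LIF (-0.48 ± 0.11, adjusted p = 0.00273). Rad21 fell (-0.47 ± 0.11). Its germline paralog Rad21l, with 61.1 and 33.96 without LIF, against 3.15 and 1.86 with LIF, and Ctcfl, the germline paralog of Ctcf, with 71.5 and 37.1 without LIF, against 2.36 and 11.2 with LIF, rose (2.94 ± 0.32 for Rad21l and 2.50 ± 0.47 for Ctcfl). Per length Ctcfl stayed far below Ctcf without LIF, at 3.03 and 1.51 TPM for Ctcfl and 157 and 162 TPM for Ctcf.

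Some members were all but absent in 1 medium. Of the 17519 members, 52 were all but absent with LIF and 89 all but absent without LIF. The rule was at most 3 recovered reads over both libraries of 1 medium and at least 100 over both of the other. These cutoffs are in reads, and the libraries with LIF were deeper (30195281 and 26243879 reads, against 26515414 and 22615220 without LIF). The counts for the 2 media are therefore not at equal depth. Of the 52 genes 13 had 0 reads with LIF, and of the 89 genes 27 had 0 reads without LIF. Cxcl12 had 1645 reads over both libraries without LIF, against 2 with LIF, a ratio of 917 after scaling for depth (95% exact binomial interval 253 to 7578). Bcl11a, a zinc finger repressor of blood and nerve cells, had 812 reads without LIF, against 2 with LIF, a ratio of 453 (125 to 3744). Ms4a4d had 493 reads without LIF, against 0 with LIF, and was at least 183-fold higher against a floor of 3 reads over both libraries. Jakmip2 and Sgip1, both known from nerve cells, were at least 168-fold and 149-fold higher by the same measure. Among genes all but absent without LIF, Prdm14 had 2 reads without LIF, against 1530 with LIF, a ratio of 686 (190 to 5671). Osm, which encodes oncostatin M, a cytokine of the LIF family, had 2 reads without LIF, against 1070 with LIF, a ratio of 480 (133 to 3968). Pramel6 was at least 342.4-fold lower and Cd180, a Toll-like receptor relative of B cells, at least 283-fold lower. Intervals and floors here cover counting error alone, since reads without molecular identifiers are not independent molecules.

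Calls were more frequent among protein-coding members, which also had the higher counts. Among 14021 protein-coding members tested, 25.6% rose and 25.9% fell, at a median mean count of 574. Among 1898 long non-coding members 16.6% rose and 17.3% fell, at a median of 30.8, and among 761 pseudogenes 6.31% rose and 17.5% fell, at a median of 27.6. The CTCF core motif CCNCNAGNNGGC, on either strand, was found in 4.01% of the members that rose, 4.62% of those that fell and 4.65% of those with no call, among the 11841 tested members with a RefSeq promoter window. It was found in 2.82% of all 27025 genes with a window and in 2.44% of all windows. A match is a string of letters and not a bound site.

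The R342C and WT responses were then compared as a difference of differences, which compares the 2 lines, each the only one of its form of CTCF. No gene passed, with 0 of 17757 differing at an adjusted p under 0.05 by limma (0% called). At an unadjusted p under 0.05 by limma 288 differed, 1.62% of those tested. That is a smaller share than evenly spread p-values would give. The same share was 10.3% for the difference from K365T and 6.58% for that from Q418R. The cause of the low share was not tested. With edgeR 0 passed, and with DESeq2 2 did, Skida1 and Rassf4. By limma without replicate 2 of R342C with LIF, 1 gene passed, Rprl2 (-5.69, adjusted p = 0.0134), and leaving out any other R342C or WT library left 0. The smallest adjusted p by limma with all libraries was 0.36. The test had limited reach, since the median standard error of a difference was 0.33 log2 units. For 54.2% of genes the 95% interval of the difference lay within 1 log2 unit on either side of 0, and for 93.7% within 2. Since no gene passed, each of the 36 lists necessarily held 0 genes that differed from WT, which is no separate result. For the naive list the median was -2.80 in R342C and -2.91 in WT, and for the formative and primed list it was 2.89 in R342C and 2.71 in WT.

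The 5 genes with the smallest p for the difference had no call by limma. They were chosen among genes with a mean of at least 100 over the 16 libraries, clone names left out. The same limits hold for the 5 genes of smallest p against K365T and against Q418R. Cubn, an endocytic receptor gene of visceral endoderm (chr2:13276338-13491813), had 475 and 800.2 normalised counts in R342C without LIF, against 2.36 and 0.931 in R342C with LIF, a log2 difference of 6.79 ± 0.49. In WT it had 33.5 and 57.2 without LIF, against 4.67 and 2.16 with LIF (2.71 ± 0.49). The responses differed by 4.08 ± 0.69 (limma adjusted p = 0.36), and the 2 R342C libraries without LIF lay above both of WT. In K365T the response of Cubn was 5.23 ± 0.49 and in Q418R 6.55 ± 0.49. WT had the smallest value of the 4 lines. Skida1 had 42.2 and 41.4 in R342C without LIF, against 374 and 428 in R342C with LIF, and 98.6 and 96.5 in WT without LIF, against 245 and 241 in WT with LIF. Its responses of -3.14 ± 0.22 in R342C and -1.28 ± 0.22 in WT differed by -1.86 ± 0.32 (limma adjusted p = 0.36, and 0.000888 by DESeq2). Rassf4, a RAS-association domain gene, responded by 1.25 ± 0.29 in R342C and 3.14 ± 0.29 in WT, a difference of -1.90 ± 0.42 (DESeq2 adjusted p = 0.0228). Lamb1 responded by 3.18 ± 0.27 in R342C and 4.68 ± 0.27 in WT, a difference of -1.50 ± 0.38. Sh3bgrl2 responded by 0.02 ± 0.13 in R342C and 0.84 ± 0.13 in WT, a difference of -0.82 ± 0.18.

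**Figure D5:**
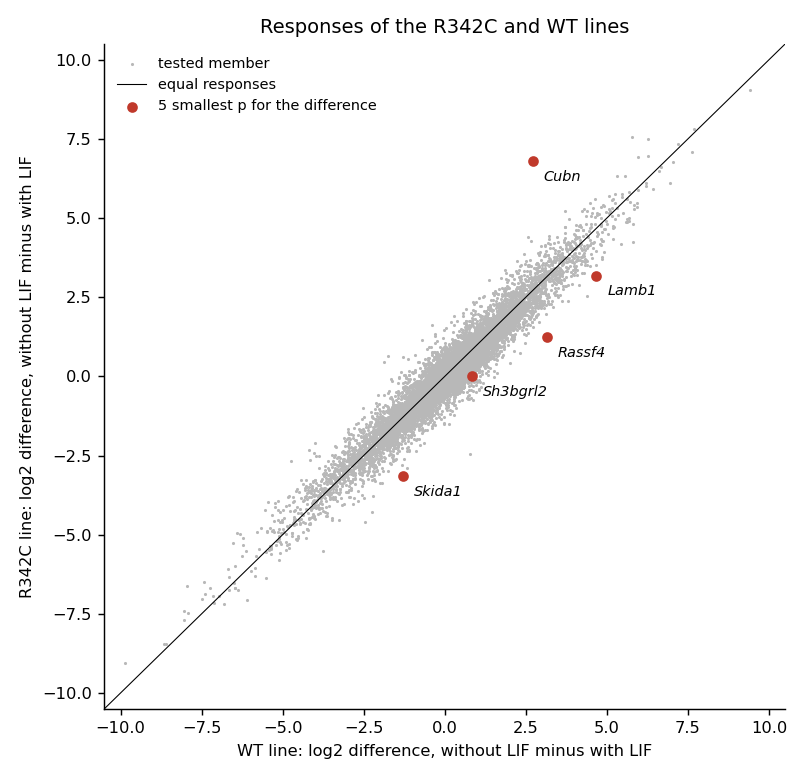
Log2 difference without LIF minus with LIF in the R342C line (vertical axis) against that in the WT line (horizontal axis), with 1 point per tested member and a line of equal responses. Points follow the line. Marked are the 5 genes with the smallest p for the difference among those with a mean of at least 100 over the 16 libraries, clone names left out. None of the 5 had a call by limma, and Cubn (6.79 in R342C, 2.71 in WT) stands farthest off among them.

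Against the other mutant lines some differences passed. These comparisons share the R342C libraries with each other and with the comparison with WT. Relative to K365T, 73 of 17757 genes differed (0.411% called), 48 with a higher (0.27%) and 25 with a lower (0.141%) difference in R342C, and 70 of them were members. The count was 171 without replicate 1 and 84 without replicate 2 of K365T without LIF, and 28 and 18 without replicate 1 and replicate 2 of K365T with LIF. It was 15 and 11 without replicate 1 and replicate 2 of R342C without LIF, and 6 and 9 without those with LIF. The 5 genes with the smallest p kept their calls in all 8 of these fits, at adjusted p up to 0.0425. Sh3bgrl, an X-linked gene, had 883 and 982 normalised counts in R342C without LIF, against 44.1 and 56.8 in R342C with LIF, and 1321 and 1149 in K365T without LIF, against 558 and 440.3 in K365T with LIF. The responses of 4.11 ± 0.24 in R342C and 1.31 ± 0.24 in K365T differed by 2.81 ± 0.34 (adjusted p = 0.00378), and the lines were farthest apart with LIF. Ephx2, a soluble epoxide hydrolase gene, moved in opposite directions, with -1.26 ± 0.26 in R342C and 1.84 ± 0.26 in K365T, a difference of -3.10 ± 0.37 (adjusted p = 0.00378). Cobll1 had no call in R342C (0.45 ± 0.18) and fell in K365T (-2.25 ± 0.18), a difference of 2.70 ± 0.25 (adjusted p = 0.000647). Dnah8, an axonemal dynein gene, fell by 1.78 in R342C and had a response of -0.48 ± 0.10 in K365T, a difference of -1.29 ± 0.14 (adjusted p = 0.00257).

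Relative to Q418R, 16 genes differed (0.0901% called), 3 with a higher (0.0169%) and 13 with a lower (0.0732%) difference in R342C, and 15 of them were members. With 1 library left out 0 to 6 passed, 6 without replicate 2 and 2 without replicate 1 of R342C without LIF, 5 without replicate 2 of Q418R with LIF, and 0 without any other library of the 2 lines. Otx2 had 308 and 328 normalised counts in R342C without LIF, against 84.97 and 68.9 in R342C with LIF, and 1176 and 1381 in Q418R without LIF, against 23.8 and 27.9 in Q418R with LIF. In WT the response of Otx2 was 2.31, and R342C differed from WT by -0.31 ± 0.44, without a call. The rise of Otx2 of 2.00 ± 0.31 in R342C was smaller than that of 5.42 ± 0.31 in Q418R, a difference of -3.42 ± 0.44 (adjusted p = 0.0161). This call ended with any library left out other than replicate 2 of R342C without LIF and replicate 2 of Q418R with LIF (adjusted p up to 0.118). Gstp1, a glutathione transferase gene, rose by 1.80 ± 0.13 in R342C, against 0.29 ± 0.13 in K365T and 0.32 ± 0.13 in Q418R, neither of which was called. It differed from both, by 1.51 ± 0.19 (adjusted p = 0.00508) and 1.48 ± 0.19 (adjusted p = 0.0161), while the difference from WT was 0.19 ± 0.19. Its difference from Q418R lost the call with the same 6 libraries left out as that of Otx2, also at adjusted p up to 0.118. Slc1a3, a glutamate transporter gene, rose by 4.0 ± 0.20 in R342C and 1.97 ± 0.20 in Q418R, a difference of 2.02 ± 0.28 (adjusted p = 0.0236), a call that was kept only without replicate 2 of R342C without LIF (adjusted p up to 0.118 in the other 7 fits).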

How the data were processed

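Total RNA was sequenced in 16 libraries, 2 for each of 4 lines in 2 media, per the labels. The submitters' processing notes name Trim Galore, STAR, DESeq2 and the build mm10, without versions, and the counting tool and annotation are not given in the sources used here. The authors deposited normalised counts, a signal of gene counts divided by 1 factor per library, for 55291 genes. Their values were whole multiples of 1 read in every library (100% of values within 0.05 of a whole read), and 1 read was worth 0.787 to 1.06 in the R342C libraries. The authors also deposited TPM, whose gene lengths are not stated. Normalised counts, plus 4 and on a log2 scale, were analysed in limma 3.58.1 (R 4.3.3), with 8 group means, 8 residual degrees of freedom, a trend in eBayes and Benjamini-Hochberg adjustment over 17757 genes with a mean of at least 10 over the 16 libraries. All adjusted p-values are from limma unless another tool is named, ± gives the SE of a log2 difference, and tests are two-sided. Alternatives were edgeR 4.0.16 (quasi-likelihood) and DESeq2 1.42.0 on the recovered reads, other filters, scalings and pseudocounts, TPM, fits within lines, a replicate term and leaving out each library. With edgeR 8448 and with DESeq2 8467 genes were called in the R342C response. The code was tested on simulated data. Ratios and promoters used Python 3.11.15, promoter sequences RefSeq (GRCm38.p6; 11841 of 17338 tested members, 68.3%, matched by symbol), and positions GENCODE M21 (97.9% of members matched).

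The members and the 36 gene lists were chosen with earlier results of these data known, and a gene can stand in more than 1 list. Named were Ctcf; the 10 largest rises and 10 largest falls among called members with a mean of at least 100 and no overlap between media, without clone names; the 5 largest rises and falls in mean TPM; up to 4 called members of each list by size of difference, with defining members or members at 0; the 5 genes with most reads among those all but absent in either medium; and the 5 genes of smallest p in each difference of responses. The choice by TPM left out mitochondrially encoded genes, structural and some other non-coding RNA genes, and clone names. The choice by smallest p kept to genes with a mean of at least 100 over the 16 libraries, clone names left out. Other list genes named, and the genes called by another fit, were chosen after their values were seen. Some genes chosen in this way are not reported here.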

Additional observations from a re-analysis of the deposited data

Results flagged for a closer look

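The 10 values given here were singled out because the response to LIF withdrawal in R342C differed from that in another mutant line by a test of the difference itself (limma, adjusted over 17757 genes). Against K365T they were the differences of Cobll1 (2.70), Dnah8 (-1.29), Ephx2 (-3.10), Sh3bgrl (2.81) and Gstp1 (1.51), on the log2 scale. Cobll1 had 319 and 370.4 normalised counts in R342C without LIF, against 256 and 247 in R342C with LIF, and 157 and 198 in K365T without LIF, against 857 and 854 in K365T with LIF. The K365T libraries without LIF were the lowest of these. Dnah8 had 3121 and 3333 in R342C without LIF, against 10959 and 11164 in R342C with LIF, and 7154 and 7118 in K365T without LIF, against 9551 and 10416 in K365T with LIF. Ephx2 had 413 and 475 in R342C without LIF, against 1287 and 880.4 in R342C with LIF, and 1742 and 1029 in K365T without LIF, against 313 and 438 in K365T with LIF. Gstp1 had 3214 and 3227 in R342C without LIF, against 917 and 927 in R342C with LIF, and 1671 and 1467 in K365T without LIF, against 1173 and 1388 in K365T with LIF.

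Against Q418R they were the differences of Gstp1 (1.48), Otx2 (-3.42), Slc1a3 (2.02), Mcf2 (-1.39) and Slit2 (-2.12). Gstp1 had 1331 and 1543 in Q418R without LIF, against 1207 and 1083 in Q418R with LIF. Slc1a3 had 1722 and 1261 in R342C without LIF, against 84.97 and 92.1 in R342C with LIF, and 1375 and 1407 in Q418R without LIF, against 346 and 356 in Q418R with LIF. Mcf2, a guanine nucleotide exchange factor gene, had 229 and 166 in R342C without LIF, against 2532 and 2739 in R342C with LIF, and 549 and 568 in Q418R without LIF, against 2631 and 3069 in Q418R with LIF (adjusted p = 0.0237, up to 0.165 with 1 library left out, where the call was kept only without replicate 1 of R342C without LIF). Slit2, an axon guidance ligand gene, had 102 and 112 in R342C without LIF, against 1089 and 1025 in R342C with LIF, and 191 and 196 in Q418R without LIF, against 424 and 435 in Q418R with LIF (adjusted p = 0.0242, up to 0.162, where the call was lost without any 1 of the 8 libraries). With 1 line per form of CTCF, a difference between forms and a difference between lines cannot be told apart.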

How the results depend on the processing

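The count of 8387 genes called in the R342C response lay between 6504 and 9042 under the alternatives, and between 6504 and 7072 with 1 R342C library left out. The share of higher among called genes was 49.4%, against 53.7% with TPM and 52.6% with upper-quartile scaling. For the difference from WT the count was 2 with DESeq2 and 0 to 1 with 1 library left out, beside 0. For the difference from K365T it was 328 with DESeq2, 22 with the R342C and K365T libraries alone, 20 with TPM, 31 with no filter on low values and 6 to 171 with 1 library left out, beside 73. Of these 73, 65.8% were higher in R342C, against 52.3% with upper-quartile scaling and 54.0% with DESeq2. For the difference from Q418R it was 112 with DESeq2, 60 with the R342C and Q418R libraries alone, 0 with TPM, 3 with no filter on low values and 0 to 6 with 1 library left out, beside 16, of which 18.8% were higher (37.5% with DESeq2). The cause of these shifts was not tested. A replicate block gave 8553, 0, 57 and 18 calls in the same order. The numbers were not taken as pairs, since the labels give no more than a number. Deviations of replicate 1 from replicate 2 were nevertheless correlated between groups (11799 genes). The correlation was 0.357 between the R342C media and ran from -0.52 to 0.54 between R342C and other groups. The main fit holds no term for such shared variation, and its source was not tested. Among values without a call that changed sign, Nes had 0.0215 with TPM, 0.0065 with upper-quartile scaling and -0.12 to 0.036 with 1 library left out, while Cdx2 had -0.36 to 0.61, T -0.20 to 2.02, Gata6 -0.068 to 0.39 and Col1a1 -0.58 to 0.16. Over all named genes and alternatives, 3140 values kept direction and side of the threshold, 88 lost the threshold, 4 passed it newly and 7 changed sign. Depth limits genes of few reads, whose log2 differences are compressed by the added 4, and 2 libraries a group limit all tests.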

Other observations

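Members that moved by at least 1 log2 unit in the same direction also lay side by side. Along the chromosomes (mm10, GENCODE M21), 66 runs of at least 4 neighbouring protein-coding members were called in the same direction, 34 higher and 32 lower without LIF. This rule was set after the values were seen, neighbouring paralogs can share reads, and no test was made. The longest run held 10 genes on chromosome 15 (chr15:102921103-103167092), the Hoxc genes from Hoxc13 to Hoxc4 and the DNA repair gene Smug1, and its median log2 difference was -3.80. Next came 8 genes on chromosome 9 (chr9:44969572-45154152), with a median of -2.63, from Cd3g, Cd3d and Cd3e, which encode chains of the T cell receptor complex, to the sodium channel subunit gene Scn4b. On chromosome 13 (chr13:32842092-33905708) 6 serine protease inhibitor genes from Serpinb1a to Serpinb6c were lower, with a median of -4.09.

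Among runs that were higher, 8 genes on the X chromosome (chrX:134686519-135598777), 5 of them of the Armcx family, had a median of 2.15. The class I histocompatibility genes H2-D1, H2-Q2, H2-Q4, H2-Q6 and H2-Q7, near-identical paralogs whose reads may be split uncertainly, had a median of 3.80 (chr17:35262730-35443773). The glutathione transferase genes Gstt3, Gstt1 and Gstt2 lay in a run of 5 with Mif and Derl3, with a median of 2.96 (chr10:75774115-75895941). A run of 7 genes on the same chromosome (chr10:77686569-78083913) had a median of 2.11 and held both Pfkl and Dnmt3l.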
